A study of Saccharomyces cerevisiae with 6 samples.

Results

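Thiamine, or vitamin B1, and vitamin B6 are enzyme cofactors that budding yeast can both take up and make. The 10 genes described here were picked by systematic name for their place in these pathways, with earlier results of these data known. They are THI5 (YFL058W), THI11 (YJR156C), THI12 (YNL332W), THI13 (YDL244W), THI20 (YOL055C), THI4 (YGR144W), THI6 (YPL214C), THI7 (YLR237W), SNZ1 (YMR096W) and SNO1 (YMR095C), 10 of the 7127 features counted. THI5, THI11, THI12 and THI13 are near-identical copies, so their summed counts were followed as well. Poly-A enriched RNA was sequenced from 3 wild type and 3 snf2Δ samples of Saccharomyces cerevisiae grown to log phase in YPD, a rich medium, without rapamycin. Snf2 is the ATPase of the Swi-Snf chromatin remodeling complex, and the comparison asks how transcript levels differ in its absence. Both groups are of the strain HHY221, a W303 MATa strain with TOR1-1, with fpr1Δ::loxP-LEU2-loxP and with FKBP12 fused to a ribosomal protein (rpl13a::RPL13A-2×FKBP12-loxP), which is built for rapamycin-driven removal of tagged proteins from the nucleus. The mutant carries in addition snf2Δ::natMX6 and is listed as 1 strain. The samples are numbered, but nothing says that they came from separate cultures, so the p-values speak of the spread among these 6 samples alone, which may be technical.

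Thiamine is assembled from a pyrimidine and a thiazole ring that are made apart and then joined. Yeast makes the pyrimidine from histidine and pyridoxal phosphate, the active form of vitamin B6, so the B6 pathway feeds the thiamine pathway. The finished vitamin is converted to thiamine diphosphate, the cofactor of pyruvate decarboxylase, transketolase and several dehydrogenases. Thiamine genes are known to be repressed when the vitamin is plentiful and to be switched on by Thi2, Thi3 and Pdc2 when it is scarce.

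The 6 libraries held 4134546 to 6708036 counts. The SNF2 counts were 363, 298 and 365 in wild type replicates 1 to 3 and 6, 9 and 7 in snf2Δ replicates 1 to 3, so the deletion showed in each library labelled with it. The a-cell genes STE2 and BAR1 stood at 676 ± 192 and 147 ± 45.9 CPM (SD, n = 3) in the wild type, where CPM is counts per 1000000 counts of a library after TMM scaling, while the alpha-factor genes MF(ALPHA)1 and MF(ALPHA)2 had between 0 and 3 counts in every library. Among the other alpha-cell markers, STE3 had 4 to 15 counts per library. SAG1 was not low, at 42.4 ± 5.90 CPM in the wild type and 48.3 ± 1.19 CPM in snf2Δ. Neither passed edgeR's test of the genotypes. Of the 4 a-cell markers, MFA1 and MFA2, which encode a-factor, fell by 0.99 and 0.76 on the log2 scale, while STE2 and BAR1 did not pass it. On leaving out wild type replicate 3, MFA1 fell by 0.62, MFA2 was at -0.35 (edgeR adjusted p = 0.0509) and STE2 and BAR1 rose, by 0.47 and 0.52. The call on MFA2 was also lost on removal of snf2Δ replicate 1 (-0.71, adjusted p = 0.0771) or 3 (-0.69, adjusted p = 0.0896). The first principal component held 76.6% of the variance and separated the genotypes. The second held 10.01% and set wild type replicate 3 apart from the other libraries. Because RNA was measured in bulk, fewer cells of a type and less RNA per cell cannot be told apart.

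In the snf2Δ libraries 8 of the 10 genes rose and 0 fell. The rises ranged from about 2-fold for THI4, THI7 and THI11 to 12.2-fold for THI5. THI6, which joins the rings of thiamine, and THI20, a kinase of the pyrimidine branch, did not pass the test. A gene is said to rise or fall where edgeR's quasi-likelihood test gave an adjusted p under 0.05, with adjustment over all 5642 genes tested, SNF2 among them. Shares of all genes tested leave SNF2 out. Of the 5641 genes other than SNF2 16.7% rose and 17.9% fell, or 942 and 1010 genes, against 1194 and 804 genes with upper quartile scaling. At an unadjusted p under 0.05 and by DESeq2 and limma-voom the count was likewise 8 up and 0 down. Of all genes tested 21.6% were up and 23.5% down at an unadjusted p under 0.05. THI5 and THI12 also passed a log2 fold change of 2, which 1.06% of all genes tested did upward. In 8 of the 10 genes every snf2Δ library lay above every wild type library, as in 22.4% of all genes tested, and in 0 did every snf2Δ library lie below, as in 24.1% of all genes tested. The median log2 fold change was 1.10 over the 10 genes and -0.02 over all genes tested. Outside the THI5 copies, 4 of 6 genes rose. Without wild type replicate 3, the library set apart by the second component, the same 8 genes passed the test.

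**Figure D1:**
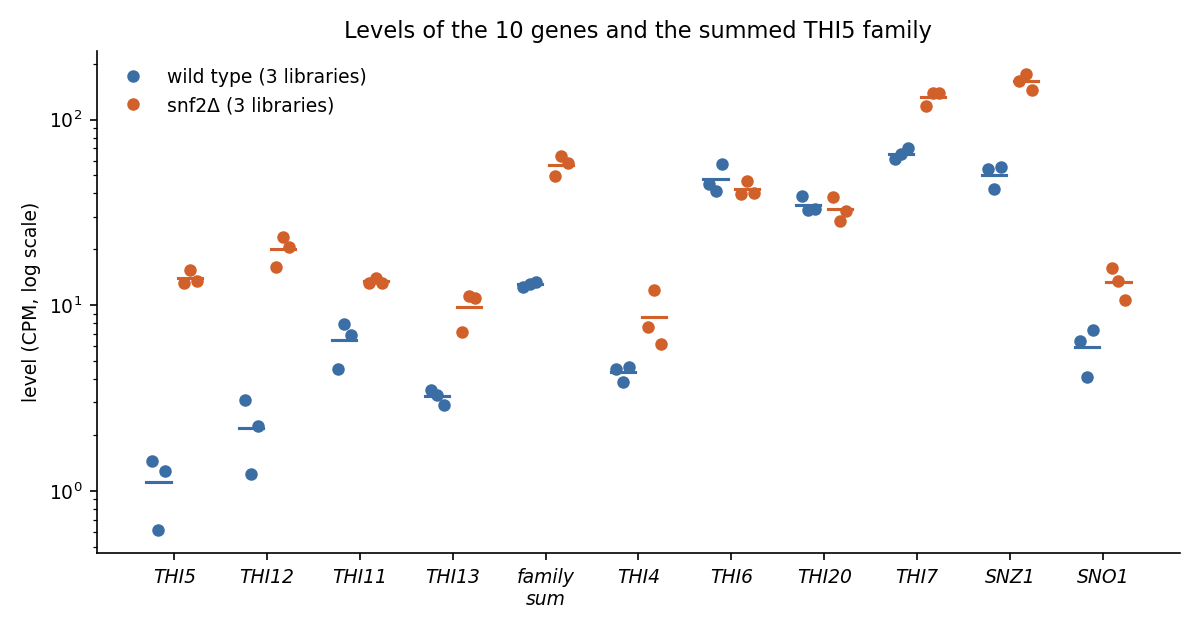
Level of each of the 10 genes and of the summed THI5, THI11, THI12 and THI13 counts in CPM (log scale), with 1 point per library and a bar at the mean of each group of 3. THI5 moves furthest, from 0.612 to 1.45 CPM in the wild type to 13.1 to 15.5 CPM in snf2Δ, while the points of THI6 and THI20 overlap between the genotypes.

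THI5, THI11, THI12 and THI13 each encode the enzyme that makes the pyrimidine precursor. It is a suicide enzyme that gives up a histidine of its own chain as substrate. The 4 coding sequences, each 1023 bases long, lie near the ends of 4 chromosomes in the S288C reference (sacCer3, RefSeq annotation). THI5 spans chrVI:12929-13951 on the plus strand, 12.9 kb from the chromosome end, and THI12 spans chrXIV:14832-15854 on the plus strand, 14.8 kb from the end. THI11 spans chrX:728574-729596 on the minus strand and THI13 chrIV:16204-17226 on the plus strand, both 16.2 kb from the end. The copies differ at 27 of the 1023 positions, and pairs of copies were 97.8% to 99.3% identical. The part of the coding sequence below is shown because it holds 11 of the 27 differing positions, given in capitals, by which reads can be assigned to a copy. It lies at chrVI:13329-13458 in THI5, chrXIV:15232-15361 in THI12, chrX:729067-729196 (minus strand) in THI11 and chrIV:16604-16733 in THI13.
THI5: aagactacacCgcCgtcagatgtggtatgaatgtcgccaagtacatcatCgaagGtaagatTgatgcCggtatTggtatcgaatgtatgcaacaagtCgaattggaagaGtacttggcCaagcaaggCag
THI12: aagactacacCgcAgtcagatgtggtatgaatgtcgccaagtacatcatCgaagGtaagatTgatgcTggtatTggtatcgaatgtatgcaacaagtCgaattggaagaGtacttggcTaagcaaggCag
THI11: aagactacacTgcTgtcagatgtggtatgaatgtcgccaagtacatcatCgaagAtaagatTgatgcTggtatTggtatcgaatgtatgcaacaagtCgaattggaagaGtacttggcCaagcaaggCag
THI13: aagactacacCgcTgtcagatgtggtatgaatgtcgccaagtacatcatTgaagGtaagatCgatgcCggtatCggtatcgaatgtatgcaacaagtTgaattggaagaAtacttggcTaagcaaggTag

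The study's reads were paired, each 75 bases long. Of the 949 windows of 75 bases in each copy, 26.2% in THI5, 36.4% in THI11, 39.9% in THI12 and 53.0% in THI13 occur once in the genome, and 84 windows are shared by all 4 copies. For THI4, THI6, THI7, THI20, SNZ1 and SNO1 all windows occur once. A window stands for a single read, while a pair can be placed by either end. The share of pairs that can be placed was not computed. No source used here gives the rule by which reads matching several copies were counted. The split among the copies is thus uncertain, and its part in the values of single copies was not tested.

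The upstream regions fell into pairs, and they are shown because the changes in level followed the same pairing. Over 600 bases before the start codon THI11 and THI13 were 100% identical and THI5 and THI12 were 99.3% identical, while the identity between the pairs was 75.04% to 75.7%. Near the gene the pairs were closer, at 96.0% to 96.4% over 250 bases. The windows below run from 250 bases before to 50 bases after the start codon, at chrVI:12679-12978 for THI5, chrXIV:14582-14881 for THI12, chrX:729547-729846 (minus strand) for THI11 and chrIV:15954-16253 for THI13. Capitals mark the 9 aligned columns at which the copies differ, 1 of them a base that is absent from THI5 and THI12. In 8 of the 9 columns THI5 and THI12 are alike and THI11 and THI13 are alike. These are S288C sequences, and the strain sequenced is W303.
THI5: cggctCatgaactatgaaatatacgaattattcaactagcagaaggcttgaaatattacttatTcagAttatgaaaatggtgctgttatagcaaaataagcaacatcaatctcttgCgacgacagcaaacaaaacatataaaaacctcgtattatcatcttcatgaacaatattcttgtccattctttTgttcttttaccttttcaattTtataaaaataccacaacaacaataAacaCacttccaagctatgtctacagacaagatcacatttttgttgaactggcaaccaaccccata
THI12: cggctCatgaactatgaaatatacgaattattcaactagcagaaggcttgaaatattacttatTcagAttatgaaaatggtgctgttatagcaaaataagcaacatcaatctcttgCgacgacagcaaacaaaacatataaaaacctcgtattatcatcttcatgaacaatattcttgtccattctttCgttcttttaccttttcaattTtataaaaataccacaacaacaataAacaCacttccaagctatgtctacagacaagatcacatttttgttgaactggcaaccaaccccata
THI11: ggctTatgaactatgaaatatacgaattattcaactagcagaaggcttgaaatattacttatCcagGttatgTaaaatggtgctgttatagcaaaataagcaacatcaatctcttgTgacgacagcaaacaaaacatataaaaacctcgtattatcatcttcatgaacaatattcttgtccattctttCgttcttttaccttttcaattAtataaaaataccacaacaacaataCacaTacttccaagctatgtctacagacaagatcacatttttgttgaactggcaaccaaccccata
THI13: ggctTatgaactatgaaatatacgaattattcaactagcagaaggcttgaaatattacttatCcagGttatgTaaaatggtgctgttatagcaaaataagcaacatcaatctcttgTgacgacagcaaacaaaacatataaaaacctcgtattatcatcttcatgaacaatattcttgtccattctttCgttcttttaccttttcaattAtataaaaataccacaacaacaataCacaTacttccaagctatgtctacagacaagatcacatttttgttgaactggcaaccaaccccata

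Summed over the copies, the family had 61, 64 and 83 counts in wild type and 215, 292 and 234 counts in snf2Δ. This equals 12.6, 13.1 and 13.3 CPM against 49.5, 63.9 and 58.2 CPM. The groups were far from overlapping, and the wild type libraries lay close together. The sum rose from 13.0 ± 0.359 to 57.2 ± 7.26 CPM (SD, n = 3), a log2 fold change of 2.14 ± 0.17 (SE) or 4.40-fold, with an edgeR adjusted p of 1.05e-07. An exact two-sided permutation test over the 6 libraries gave p = 0.1, the smallest that 3 against 3 allows. The sum does not depend on how reads were split among the copies, but reads set aside for matching several copies would be missing from it.

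Taken one by one, the copies all rose, and by different amounts. THI5 was at 1.45, 0.612 and 1.28 CPM in the wild type and at 13.1, 15.5 and 13.4 CPM in snf2Δ, with 7, 3 and 8 counts against 57, 71 and 54. It rose by a log2 fold change of 3.61 ± 0.34 (95% interval 2.90 to 4.33, edgeR adjusted p = 5.56e-07), and its wild type level rests on few reads. The floor of 3 counts stood at 0.481 to 0.746 CPM per library, so wild type replicate 2 was at the floor for THI5.

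THI12 was at 3.10, 1.22 and 2.24 CPM in the wild type and at 16.1, 23.2 and 20.6 CPM in snf2Δ. It rose by 3.18 ± 0.31 (interval 2.52 to 3.83, edgeR adjusted p = 8.96e-07), or 9.03-fold, next in size to THI5. THI13 was at 3.51, 3.27 and 2.89 CPM against 7.14, 11.2 and 10.9 CPM. Its groups did not overlap, and its rise of 1.60 ± 0.30 (interval 0.96 to 2.23, edgeR adjusted p = 6.76e-04) was 3.03-fold. THI11, the copy with the highest wild type level, was at 4.54, 7.96 and 6.89 CPM against 13.1, 14.01 and 13.2 CPM. It rose 2.07-fold, by 1.05 ± 0.26 (interval 0.50 to 1.59, edgeR adjusted p = 0.00488).

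The intervals of THI5 and THI12 overlapped each other and lay above those of THI11 and THI13. In the wild type THI11 made up 49.6% ± 12.6 of the family's counts, THI13 24.9% ± 3.09, THI12 16.9% ± 7.61 and THI5 8.60% ± 3.51 (SD, n = 3). In snf2Δ the largest share was that of THI12, at 34.8% ± 1.97, with THI5 at 24.6% ± 1.74, THI11 at 23.7% ± 2.47 and THI13 at 16.9% ± 2.25. THI5 and THI12 together accounted for 69.5% of the family's gain in CPM.

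Divided within each library, the counts of THI5 plus THI12 over those of THI11 plus THI13 gave 0.564, 0.164 and 0.361 in the wild type and 1.44, 1.54 and 1.41 in snf2Δ. A ratio within a library does not depend on scaling, and all 3 snf2Δ libraries were above 1 and all 3 wild type libraries below it. The mean log2 ratio differed by 2.19 between the genotypes. The pair THI5 and THI12 went from 3.30 ± 1.37 to 34.0 ± 4.75 CPM and the pair THI11 and THI13 from 9.69 ± 1.59 to 23.2 ± 2.58 CPM. The pairs were formed by upstream sequence with the values of the copies already seen, so these ratios and sums are a description with no test.

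Within the pairs the ratios moved less. THI5 over THI12 was 0.467, 0.5 and 0.571 in the wild type and 0.814, 0.670 and 0.651 in snf2Δ. THI11 over THI13 was 1.29, 2.44 and 2.39 in the wild type and 1.84, 1.25 and 1.20 in snf2Δ, and here the genotypes overlapped.

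The neighbours of the copies also follow the pairing. THI5 and THI12 each lie beside a gene pair of vitamin B6 synthesis, SNZ3 and SNO3 for THI5 and SNZ2 and SNO2 for THI12, while THI11 and THI13 lie beside the hexose transporter genes HXT16 and HXT15. SNZ3, 669 bases upstream of THI5, rose from 5.18 ± 0.477 to 13.6 ± 5.09 CPM (log2 fold change 1.41 ± 0.30, edgeR adjusted p = 0.00166). SNZ2, 668 bases upstream of THI12, rose from 6.51 ± 0.610 to 12.4 ± 1.11 CPM (0.92 ± 0.24, adjusted p = 0.00747). SNO3 and SNO2 did not pass the test, with log2 fold changes of 0.33 ± 0.32 and 0.80 ± 0.35. HXT16 had no count in any library, and HXT15 and the SOR1 and SOR2 genes beyond them were too low to be tested. The share of their windows that occur once was not computed. Reads set aside for matching several genes may thus be missing from their counts. On the other side each copy is followed by an aryl-alcohol dehydrogenase gene, of which AAD6 is annotated as a pseudogene. None of the 4 passed the test. Their log2 fold changes were 0.22 ± 0.16 for AAD6 after THI5, 0.06 ± 0.18 for AAD14 after THI12, 0.25 ± 0.17 for AAD10 after THI11 and 0.45 ± 0.20 for AAD4 after THI13. Without wild type replicate 3 AAD6 was at 0.37 and passed it (edgeR adjusted p = 0.0473). AGP3 beyond AAD6 and RPD3 beyond AAD14 were at 0.52 ± 0.21 and -0.10 ± 0.13, neither past the test. With upper quartile scaling AAD4 and AGP3 passed it, at 0.53 (edgeR adjusted p = 0.0490) and 0.60 (0.0376), and AGP3 passed it also without snf2Δ replicate 1, at 0.66 (0.0379).

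**Figure D2:**
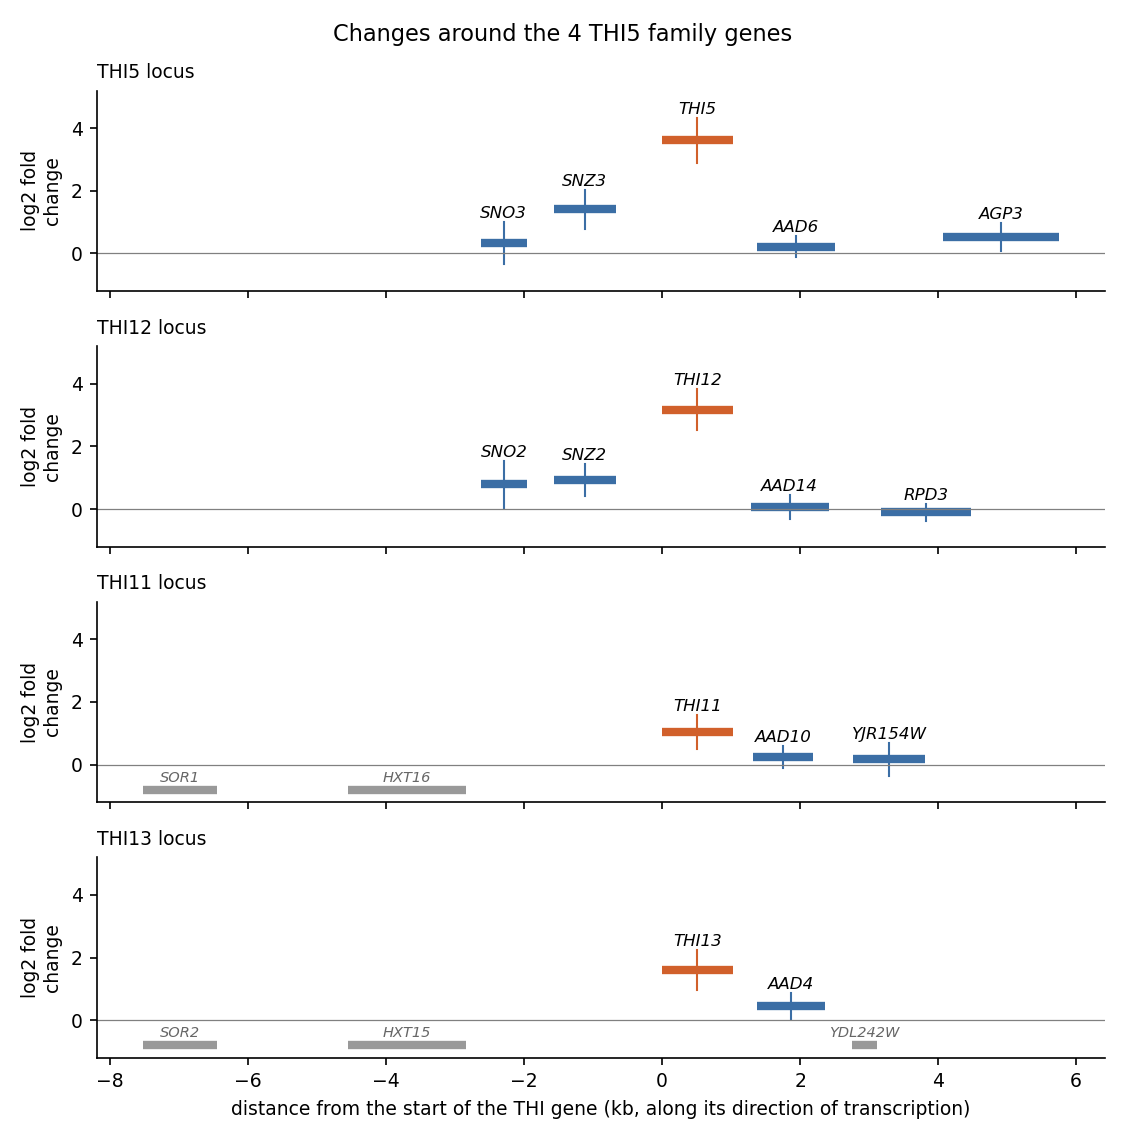
Log2 fold change, snf2Δ over wild type, of each THI5 copy (orange) and of its 2 nearest genes on each side (blue), placed by distance in kb from the start of the copy along its direction of transcription. Thick bars span the genes, thin lines are 95% intervals and grey bars are genes too low to be tested; THI5 and THI12 stand at 3.61 and 3.18 and THI11 and THI13 at 1.05 and 1.60.

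SNZ2 and SNZ3 are 99.3% identical to each other, and SNO2 and SNO3 99.7%, so these copies share the limit of the THI5 family: 29.6% and 18.3% of their windows of 75 bases occur once. Summed after their values were seen, SNZ2 and SNZ3 went from 11.7 ± 0.230 to 26.0 ± 5.81 CPM and SNO2 and SNO3 from 6.36 ± 0.509 to 9.37 ± 1.91 CPM. Per length, THI12 over SNZ2 moved from 0.296 ± 0.133 in the wild type to 1.43 ± 0.319 in snf2Δ, and THI5 over SNZ3 from 0.190 ± 0.0774 to 0.974 ± 0.308. In the wild type, at both loci, the THI gene was the lower of the neighbours per length.

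THI20, at chrXV:224420-226075 on the minus strand, phosphorylates the pyrimidine and also breaks down thiamine. It was at 38.8, 32.5 and 32.9 CPM in the wild type and at 38.5, 28.2 and 32.3 CPM in snf2Δ. The groups overlapped, and the log2 fold change was -0.07 ± 0.17 (interval -0.43 to 0.29, edgeR adjusted p = 0.774). Its paralog THI21, 82.1% identical in coding sequence and a kinase of the same step, rose from 13.3 ± 1.20 to 19.9 ± 0.860 CPM (0.57 ± 0.20, edgeR adjusted p = 0.0351). That call was lost in 5 of 14 alternatives, with adjusted p of 0.144 and 0.103 after removal of wild type replicates 1 and 2 in turn, 0.1005 and 0.0802 after removal of snf2Δ replicates 2 and 3 in turn, and 0.0506 by DESeq2. Per length, THI20 was at 2.63 ± 0.493 times the level of THI21 in the wild type and 1.67 ± 0.333 times in snf2Δ. THI22, a further relative at 26.8 ± 3.59 and 23.3 ± 1.94 CPM, did not pass the test.

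The thiazole ring is made by Thi4, at chrVII:780399-781379 on the plus strand. Thi4 is a suicide enzyme that gives up the sulfur of 1 of its own cysteines. It was low in both genotypes, at 4.54, 3.88 and 4.65 CPM in the wild type and 7.599, 12.04 and 6.215 CPM in snf2Δ. All snf2Δ libraries were above the wild type libraries, but they differed among themselves, with replicate 2 the highest. THI4 rose by 0.98 ± 0.31 (interval 0.33 to 1.64, edgeR adjusted p = 0.0214), or 1.98-fold. The call rests on single libraries: without snf2Δ replicate 2 the log2 fold change was 0.66 (adjusted p = 0.165), and without wild type replicate 2 it was 0.91 (adjusted p = 0.0629). Of its 4 neighbours 3 fell, with log2 fold changes of -1.51 for SKN1, -1.48 for BTN2 and -0.52 for ENP2, which lies 387 bases away. Over all genes tested 17.9% fell. Genes near others of the 10 were called too. FAR10 near THI7 (-0.81) and GPM3 near THI20 (-0.55) fell, while YPL216W (0.58) and PUS1 (0.41) near THI6 rose. Each of these calls was lost in some alternatives. SKN1 kept its call in all 14 alternatives. BTN2 lost it without snf2Δ replicate 2 (edgeR adjusted p = 0.0533) or 3 (0.0768) and by DESeq2 (0.0927), and without wild type replicate 2 it fell by 0.70. ENP2 lost it without wild type replicate 1 (0.0571) or 2 (0.0601) and without snf2Δ replicate 2 (0.0887).

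Thi6 joins the rings into thiamine phosphate and also salvages the thiazole. THI6, at chrXVI:148569-150191 on the minus strand, was at 45.0, 41.2 and 57.6 CPM in the wild type and at 39.8, 46.8 and 40.0 CPM in snf2Δ. The ranges overlapped, and the highest value was that of wild type replicate 3. The log2 fold change of -0.19 ± 0.16 did not pass the test (interval -0.53 to 0.16, edgeR adjusted p = 0.408), so a rise of the size of that of THI7 lay outside the interval.

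THI7 encodes the thiamine transporter of the plasma membrane and lies at chrXII:612367-614163 on the plus strand. It was at 61.2, 65.3 and 69.9 CPM in the wild type and at 118, 139 and 139 CPM in snf2Δ. Every snf2Δ library was well above every wild type library, and the rise of 1.01 ± 0.13 (interval 0.727 to 1.296, edgeR adjusted p = 2.43e-05) was 2.02-fold. Its close relatives did not rise with it. THI72, 84.0% identical in coding sequence, was at 12.5 ± 1.90 and 13.5 ± 3.27 CPM and did not pass the test. NRT1, 83.8% identical and known as a nicotinamide riboside transporter, fell from 57.3 ± 10.2 to 35.7 ± 3.97 CPM (-0.68 ± 0.17, edgeR adjusted p = 0.00482).

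**Figure D3:**
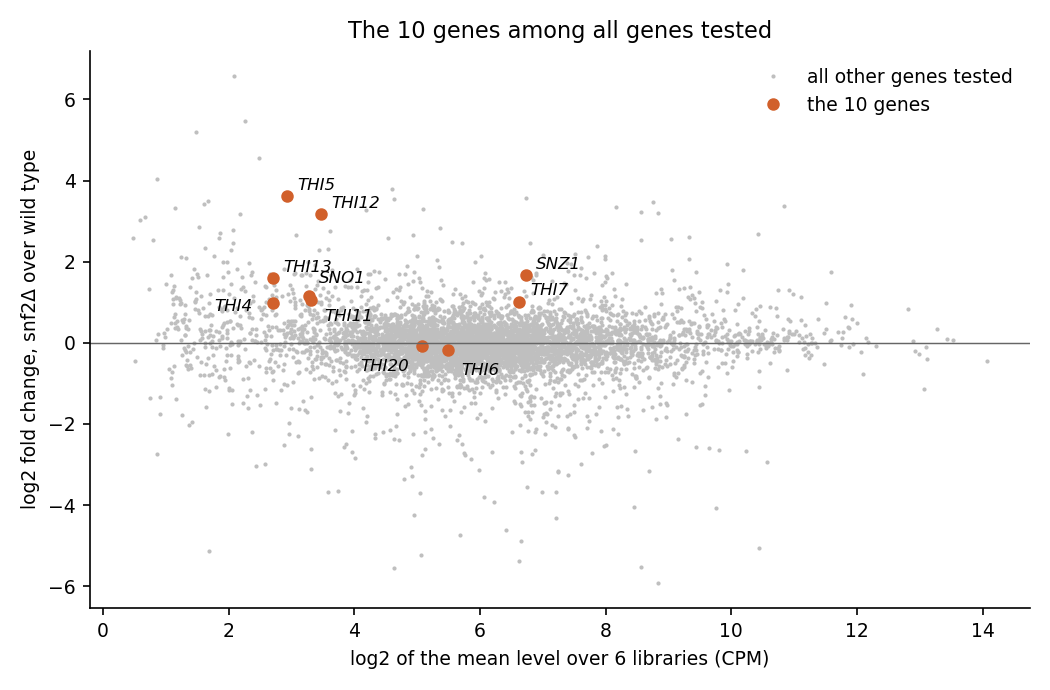
Log2 fold change, snf2Δ over wild type, against the log2 of the mean level in CPM over the 6 libraries, for each gene tested (grey) and the 10 genes (orange, named). THI5 and THI12 lie at low mean level and high fold change, SNZ1 and THI7 are the more abundant genes that rose, and THI6 and THI20 lie near 0.

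SNZ1 and SNO1 make pyridoxal phosphate: Sno1 is a glutaminase that frees ammonia, and Snz1 is the synthase that uses it. The genes lie head to head on chromosome XIII, SNO1 at chrXIII:457285-457959 on the minus strand and SNZ1 at chrXIII:458408-459301 on the plus strand, 448 bases apart. Their upstream windows are shown because both genes of the pair rose and only their windows, among the 10, hold the letters TGACTC, the core of the site bound by Gcn4, which activates genes of amino acid synthesis. Capitals mark these letters, on either strand, in the window chrXIII:458158-458457 of SNZ1 and the window chrXIII:457910-458209 (minus strand) of SNO1, which share their outer ends.
SNZ1: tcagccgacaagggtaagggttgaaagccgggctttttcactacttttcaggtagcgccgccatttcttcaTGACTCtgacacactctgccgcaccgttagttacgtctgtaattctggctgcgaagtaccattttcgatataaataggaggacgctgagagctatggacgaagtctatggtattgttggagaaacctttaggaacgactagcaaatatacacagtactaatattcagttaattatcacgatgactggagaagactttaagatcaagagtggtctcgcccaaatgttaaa
SNO1: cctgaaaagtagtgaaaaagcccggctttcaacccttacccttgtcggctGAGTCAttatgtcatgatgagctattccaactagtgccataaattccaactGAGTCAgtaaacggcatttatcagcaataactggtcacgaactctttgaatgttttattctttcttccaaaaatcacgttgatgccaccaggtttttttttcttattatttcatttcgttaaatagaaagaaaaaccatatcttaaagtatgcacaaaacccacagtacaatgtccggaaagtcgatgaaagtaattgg

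In 250 bases before the start codon SNZ1 holds TGACTC once, 179 bases before the start, and SNO1 holds it 2 times on the opposite strand, 200 and 149 bases before the start. Of 6001 promoters of this length 6.25% hold it. Among the further genes described below, THI2, TPN1 and PDA1 hold it as well. THI2 and TPN1 did not pass the test and PDA1 rose. SNZ2 and SNZ3, which rose, do not hold it. TATAAA, the letters of a TATA element, was found in 7 of the 10 windows on either strand and in 43.4% of all promoters. The 7 include all THI5 copies, whose 250 upstream bases are 96.0% to 100% identical, so their matches are not separate cases. The rest are THI4, THI6 and SNZ1. In the THI5 copies TATAAA lies 114 and 40 bases before the start, in THI4 113 and in SNZ1 111 bases before it. A match is a description of the letters and not evidence of a bound site.

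SNZ1 was at 53.9, 42.0 and 55.3 CPM in the wild type and at 161, 177 and 145 CPM in snf2Δ. The gap between the genotypes was several times the spread within them. It rose by 1.67 ± 0.15 (interval 1.36 to 1.99, edgeR adjusted p = 3.31e-07), or 3.19-fold, and was the most abundant of the 10 genes per length in both genotypes. SNO1 was at 6.40, 4.08 and 7.38 CPM in the wild type and at 15.9, 13.6 and 10.7 CPM in snf2Δ. Its groups did not overlap, and it rose by 1.15 ± 0.28 (interval 0.57 to 1.74, edgeR adjusted p = 0.00414), or 2.23-fold. The intervals of the pair overlapped. Per length, SNZ1 stood at 6.60 ± 1.08 times the level of SNO1 in the wild type and 9.25 ± 1.39 times in snf2Δ. The genes that flank the pair, CTF13 next to SNO1 and MTG1 next to SNZ1, did not pass the test (0.12 ± 0.26 and 0.01 ± 0.19).

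SNZ1 is 70.7% identical to SNZ2 in coding sequence and SNO1 59.0% identical to SNO2, so reads of the pair on chromosome XIII can be told from those of the copies near the chromosome ends. The level of SNZ1 per length was 7.77 ± 0.922 times that of SNZ2 in the wild type and 13.0 ± 0.934 times in snf2Δ. For SNZ3 the factors were 9.86 ± 2.00 and 12.7 ± 3.48, and their ranges overlapped between the genotypes. Only 29.6% of the windows of 75 bases in SNZ2 and SNZ3 occur once, against all of those in SNZ1. Reads set aside for matching both copies would make these factors too large, and their part was not tested.

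Ordered by level per kb of coding sequence, the wild type had SNZ1 at 56.4 ± 8.16 CPM per kb, THI7 at 36.4 ± 2.44, THI6 at 29.5 ± 5.27 and THI20 at 21.0 ± 2.16. SNO1 followed at 8.82 ± 2.51, THI11 at 6.32 ± 1.71, THI4 at 4.44 ± 0.427, THI13 at 3.15 ± 0.308, THI12 at 2.14 ± 0.917 and THI5 at 1.09 ± 0.432. The libraries of THI7 and THI6 overlapped, as did those of SNO1, THI11 and THI4 and those of THI13, THI12 and THI5 from one to the next. In snf2Δ the order was SNZ1 at 180.2 ± 17.7 CPM per kb, THI7 at 73.5 ± 6.74, THI6 at 26.0 ± 2.46 and THI20 at 19.9 ± 3.11, with SNO1 at 19.8 ± 3.86 and THI12 at 19.5 ± 3.51 overlapping THI20. THI5 at 13.7 ± 1.29 and THI11 at 13.1 ± 0.486 did not differ beyond their spread, and THI13 at 9.53 ± 2.21 and THI4 at 8.79 ± 3.10 were lowest. These levels use the full coding length, while 26.2% (THI5) to 53.0% (THI13) of the windows of the THI5 copies occur once. Reads set aside for matching several copies would place the copies too low in both orders, and their part was not tested.

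The rest of the pathway was read from lists of 29 further genes. Of these 8 rose, 2 fell and 19 did not pass the test, with a median log2 fold change of 0.25. Over all genes tested 16.7% rose and 17.9% fell, the shares to set beside the counts of each list. Of the 3 regulators of thiamine genes 0 passed the edgeR test, 0 were at an unadjusted p under 0.05, and 0 were called by DESeq2 or limma-voom. THI2 was at 9.54 ± 0.428 and 9.53 ± 2.62 CPM in wild type and snf2Δ, THI3 at 51.8 ± 3.58 and 50.9 ± 1.68 CPM and PDC2 at 68.4 ± 9.19 and 61.6 ± 5.998 CPM. The intervals of their log2 fold changes ran from -0.56 to 0.56, from -0.32 to 0.28 and from -0.47 to 0.16.

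Of 9 other genes of thiamine synthesis and uptake 1 rose, THI21, and 2 fell, NRT1 and PHO3. PHO3, a secreted acid phosphatase that frees thiamine from its phosphates, fell from 434 ± 104 to 145 ± 47.5 CPM (-1.58 ± 0.22, edgeR adjusted p = 4.50e-05). It was at 1694, 1971 and 3432 counts in the wild type and 683, 426 and 748 counts in snf2Δ, with no overlap in CPM. THI80, which makes thiamine diphosphate, was at -0.14 ± 0.14, and TPC1, its mitochondrial carrier, had an interval of -0.42 to 0.42, neither past the test. THI22, THI72, THI73 and THI74 did not pass it either.

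Of 8 other vitamin B6 genes 3 rose, SNZ2, SNZ3 and PDX3, and 0 fell, by edgeR, DESeq2 and limma-voom alike, with 6 up and 0 down at an unadjusted p under 0.05. PDX3 encodes pyridoxine phosphate oxidase, which makes pyridoxal phosphate by the salvage route. It rose from 93.3 ± 4.32 to 204.9 ± 33.1 CPM (1.13 ± 0.14, edgeR adjusted p = 1.63e-05), or 2.20-fold. The transporter gene TPN1, at 122.7 ± 15.0 and 133 ± 18.6 CPM, did not pass the test, nor did BUD16 and BUD17, known or predicted pyridoxal kinase genes, at 0.46 ± 0.21 and 0.30 ± 0.14. BUD16 passed it without wild type replicate 3, at 0.81 (edgeR adjusted p = 6.55e-04), and with the replicate number as a block, at 0.52 (0.0205). BUD17 passed it with upper quartile scaling, at 0.38 (0.0381).

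Of 9 enzymes that use thiamine diphosphate 4 rose and 0 fell, by edgeR, DESeq2 and limma-voom alike, with 5 up and 0 down at an unadjusted p under 0.05. TKL2, the minor transketolase, rose from 3.36 ± 0.526 to 8.71 ± 0.983 CPM (1.38 ± 0.29, edgeR adjusted p = 0.00161). ILV2, acetolactate synthase of the branched-chain amino acid pathway, rose from 626 ± 88.1 to 1030 ± 168 CPM (0.72 ± 0.16, adjusted p = 0.00285). PDC5, a minor pyruvate decarboxylase, rose by 0.63 ± 0.18 (adjusted p = 0.0120) and PDA1, of the pyruvate dehydrogenase complex, by 0.41 ± 0.15 (adjusted p = 0.0439). The call on PDC5 was lost on removal of wild type replicate 1 (adjusted p = 0.0553), wild type replicate 2 (0.0510) or snf2Δ replicate 2 (0.0503). The call on PDA1 was lost with no filter on low counts (0.0516) and on removal of any library but wild type replicate 3 and snf2Δ replicate 1, with adjusted p between 0.116 and 0.185. The major isozymes did not pass the test, with PDC1 at 10724 ± 2493 and 11345 ± 1718 CPM and TKL1 at 1480.1 ± 233 and 1760.3 ± 243 CPM. PDC6, PDB1 and KGD1 did not pass it either. PDB1 passed in 3 of 14 alternatives, at 0.49 without wild type replicate 3 (adjusted p = 0.00817), 0.43 with upper quartile scaling (0.0344) and 0.35 with scaling by total counts (0.0335).

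**Figure D4:**
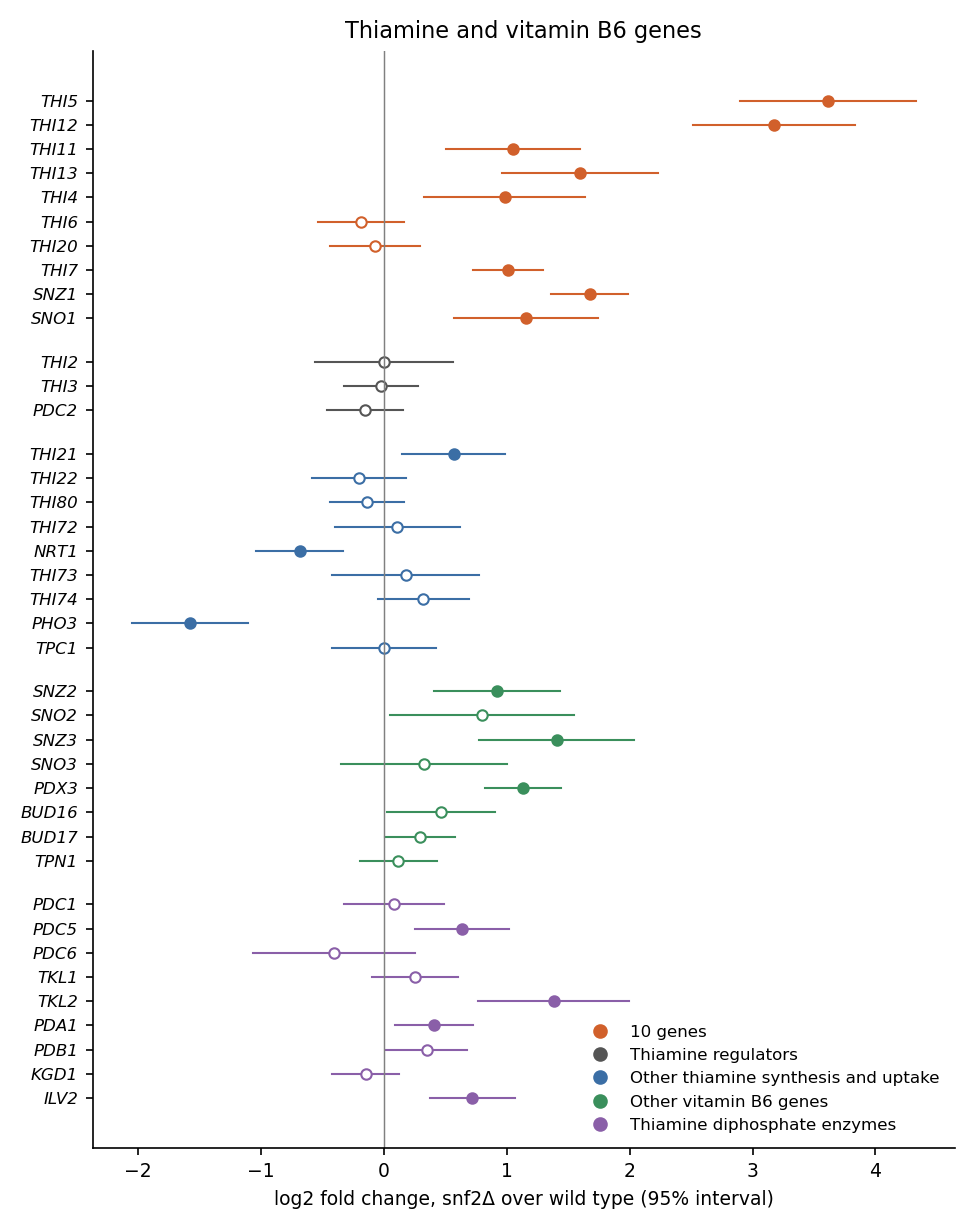
Log2 fold change, snf2Δ over wild type, with its 95% interval, for the 10 genes and the 29 further genes of 4 lists; filled points passed the edgeR test at an adjusted p under 0.05 and open points did not. THI5 and THI12 lie farthest to the right at 3.61 and 3.18, PHO3 farthest to the left at -1.58, and the 3 regulators lie near 0.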

How the data were processed

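RNA-seq libraries of 3 wild type and 3 snf2Δ samples were analysed, grouped by the genotype in the labels. The authors deposited whole-number read counts per annotated feature, 1 column per library, with no normalization. The submitters' processing notes name bcl2fastq 2.18, STAR 2.7.3a, RSEM 1.3.0 and the build sacCer3, and the study's methods describe paired reads of 75 bases and an Ensembl annotation. How strand and reads matching several genes were treated was not stated in any source used here. The labels describe hot phenol extraction of RNA, and the study's methods a column kit.

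Counts were tested with edgeR 4.0.16 (R 4.3.3): filterByExpr with its defaults, TMM scaling, a quasi-likelihood F test with genotype as the sole term and Benjamini-Hochberg adjustment over the 5642 genes tested, SNF2 included. Counts and shares of genes called are over the 5641 genes other than SNF2. All 10 genes passed the filter. The SE is the size of the log2 fold change over the square root of F, and intervals cover 95%. The family was tested on a table with its 4 rows replaced by their sum. CPM were scaled by TMM. Totals ran from 4134546 to 6708036 counts, so 3 counts equal 0.481 to 0.746 CPM, and such floors cover counting error only. The test was tried on simulated data first.

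The labels number the samples but name no shared batch, so the main fit used no block. The deviations of same-numbered libraries from their group means correlated at 0.155, -0.042 and 0.128, which does not settle whether the numbers pair them. Alternatives were other scalings, other filters, DESeq2 1.42.0, limma-voom (limma 3.58.1), the replicate number as a block and leaving out each library. Of the 7127 features 6047 matched the RefSeq annotation of the S288C reference by systematic name. Coding sequences and upstream windows were read from that genome and aligned with mafft 7.526 and Biopython 1.88.

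The 10 genes and the lists of further genes were chosen with earlier results of these data known. Named genes were the 10 genes, their family sum, SNF2, all genes of the lists and the 2 nearest annotated genes on each side of each of the 10, with values given for those that bear on a result.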

Additional observations from a re-analysis of the deposited data

How the results depend on the processing

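Over 14 alternatives the 10 genes gave 138 values, of which 136 kept their side of the threshold. The 3 that changed sign were all of THI20, which was not called: 0.01 with upper quartile scaling, 0.01 without wild type replicate 1 and 0.03 without snf2Δ replicate 2. The 2 that lost the call were THI4 without wild type replicate 2 (0.91) and without snf2Δ replicate 2 (0.66). The number of the 10 genes that rose was 8, except 7 in those leave-outs and 6 with a filter of at least 10 CPM in 3 libraries, which dropped THI4 and THI13. In no alternative did any of the 10 fall. The log2 fold change of the family sum ranged from 2.05 to 2.24, at 2.13 with the replicate block. The copies on their own gave 3.61 for THI5, 3.18 for THI12, 1.60 for THI13 and 1.05 for THI11. With the replicate block 2044 genes of the whole table were called against 1952, and no call on the 10 genes changed. Not every sample correlated best with its own number. Leaving out single libraries moved the number of genes called between 1426 (without snf2Δ replicate 2) and 2493 (without wild type replicate 3). Other scalings moved the median log2 fold change of all genes by at most 0.0851. Of 845 values of other named genes 791 kept their side of the threshold, 37 lost the call and 17 gained it. Of the 845, 35 changed sign, over 11 genes and with no change of call. The low counts of THI5 and THI12 in the wild type limit the precision of their fold changes.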
